A study of Mus musculus with 92 samples.

Results

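The libraries examined were those of 5 male CD-1 mice, a wild-type outbred stock, that received HFPO-DA by oral gavage at 0.5 mg/kg once daily for 18 months, set against 5 male CD-1 mice of the same genotype and duration at 0 mg/kg. The 10 libraries were chosen by the dose, sex and duration in their labels, out of 92 in the series. HFPO-DA is a short-chain perfluorinated ether acid used in making fluoropolymers. RNA came from sections of formalin-fixed, paraffin-embedded liver scraped from slides and was read with TempO-Seq, an assay in which pairs of probes are ligated on their target RNA and the ligated pairs are counted. Values are given as counts scaled to library size and composition (CPM), and differences as log2 fold changes with standard errors. The other 18-month males used here received 0.05 mg/kg (4 mice), 0.1 mg/kg (3 mice) or 5 mg/kg (3 mice), and 2 further pairs of groups at 0.5 and 0 mg/kg were males at 9 months (5 and 4 mice) and females at 18 months (5 and 5 mice), all of the same stock. The labels give no litter, cage, batch or pairing, so p-values measure the spread between mice within a group, and the labels do not state how old the mice were when dosing began.

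Fatty acids that enter a hepatocyte are bound to coenzyme A and then burned in mitochondria, shortened in peroxisomes, hydroxylated at the omega end or stored in droplets. Many genes of these routes are switched on by PPAR-alpha, a fatty acid receptor that binds DNA together with the retinoid X receptor at a pair of AGGTCA elements spaced by 1 base. In rodent liver, chemicals that activate this receptor are known for increasing peroxisomes and the enzymes within them.

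The 10 libraries held 9234451 to 17638156 counts over genes, with 12767 to 14636 genes detected. All 9 hepatocyte markers were measured, and their summed level ran from 23064 to 61804 CPM in the controls and from 12982 to 42026 CPM in the dosed mice. The mean correlation of a library with the others of its group, on log2 CPM, was lowest in control replicate 5 (0.922). Dosed replicates 2 (0.944) and 5 (0.945) came next, and the remaining libraries were at 0.954 to 0.961. In the genes and marker lists that follow, a pair of libraries stood apart, 1 in each group: control replicate 5 and dosed replicate 2. In that pair Apoa4, an apolipoprotein of fasting and fatty liver, reached 13290.1 and 12687 CPM, against 17.5 to 613 CPM in the other 8 libraries. The summed fetal and tumour markers reached 1273 and 786 CPM in the pair, against 15.5 to 41.1 CPM elsewhere. Cholangiocyte markers summed to 199 and 499 CPM in the pair and to 35.1 to 72.8 CPM in the others. In dosed replicate 5 the lymphocyte and plasma cell markers summed to 842 CPM, against 25.1 to 114 CPM in the other 9 libraries. The part these features play in the results was not tested, and the main count is given below with and without the pair.

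At 0.5 mg/kg, 27 of 13002 genes rose (0.208%) and 0 fell (0%), by edgeR's quasi-likelihood test with a Benjamini-Hochberg adjusted p under 0.05. At an unadjusted p under 0.05 the same test gave 490 higher and 322 lower genes, and DESeq2 called 84 higher and 24 lower, among them all 27. The median log2 fold change over all genes tested was -0.0026, with 6460 genes positive and 6542 negative. In 25 of the 27 genes every dosed mouse lay above every control, an arrangement found in 154 of all 13002 genes (1.18%). The exceptions were Gm49366 and Pde4d, in which dosed replicate 2 fell within the control range. The fall with the smallest adjusted p was that of Acmsd, a decarboxylase that turns a tryptophan product away from NAD synthesis, at -1.75 ± 0.38 on the log2 scale (adjusted p = 0.0811), and it was named after its values were seen. Leaving out 1 mouse moved the count by over 1.5 times in 4 cases: the omission of control replicate 2 left 10 calls, that of control replicate 3 or of control replicate 4 left 15, and that of dosed replicate 4 left 16. Called whichever mouse was left out were 10 genes: Sptlc3, Acot2, Pctp, Ehhadh, Fbp2, Cpt1b, Fam43a, Gnai1, Acot3 and Cd36.

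**Figure D1:**
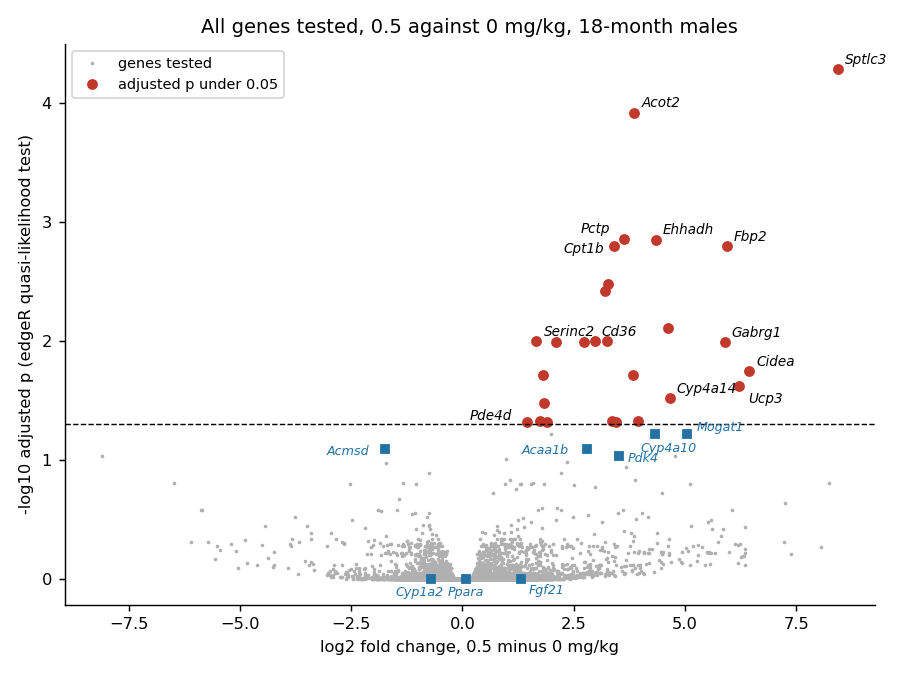
Log2 fold change (0.5 minus 0 mg/kg, 18-month males) against -log10 of the adjusted p for all 13002 genes tested, with the 27 called genes as red circles and 8 genes that did not pass as blue squares, the dashed line marking an adjusted p of 0.05. Every red circle lies right of 0, with Sptlc3 at 8.44 as the largest rise, and Acmsd is the gene left of 0 that comes closest to the line.

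Of the 27 genes, 13 belong to the 4 lists of fatty acid routes, which together hold 89 tested genes, so 14.6% of those lists was called. DESeq2 called 24 of the 89 genes, all higher. The lists were drawn up with earlier results of these data known, so the counts describe them and are no independent evidence of a direction.

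In the peroxisomal list 2 of 27 tested genes rose, Ehhadh and Crat, and the median log2 fold change was 0.72. Ehhadh encodes the bifunctional enzyme that carries out the middle steps of peroxisomal beta-oxidation. It stood at 544, 338, 459, 375 and 173 CPM in control mice 1 to 5, and at 6131, 2262, 5670.2, 12297 and 11916 CPM in dosed mice 1 to 5. Dosed replicate 2 was the lowest and replicates 4 and 5 were the highest, and the groups did not overlap. Ehhadh was 20.3-fold higher, a log2 difference of 4.34 ± 0.58 (SE, n = 5 per group, adjusted p = 0.00141). Crat, which moves short acyl groups between coenzyme A and carnitine, was at 6.44 to 12.2 CPM in the controls and at 25 to 55.7 CPM in the dosed mice, a log2 difference of 2.09 ± 0.36 (adjusted p = 0.0102, and 0.0589 without control replicate 2). The thiolase gene Acaa1b (2.79 ± 0.60, adjusted p = 0.0799) and Pex11a, a membrane protein of dividing peroxisomes (2.36 ± 0.53, adjusted p = 0.104), missed the threshold. DESeq2 called 6 genes of this list, among them Acaa1a, Acaa1b and Pex11a besides the first pair.

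Mitochondrial oxidation and ketogenesis gave 1 called gene among 22, Cpt1b, although all 22 differences were positive, with a median of 0.86. Cpt1b is the carnitine palmitoyltransferase form best known from muscle, and it loads long-chain fatty acids for entry into mitochondria. Its level was 6.90, 7.13, 8.46, 3.25 and 5.92 CPM in control mice 1 to 5, and 53.2, 21.3, 48.9, 82.6 and 129 CPM in dosed mice 1 to 5. All dosed mice were above all controls, with replicate 5 highest, and the log2 difference was 3.40 ± 0.47 (adjusted p = 0.00159). Cpt1a, the form best known from liver, went from 2.30 to 6.37 CPM in the controls to 6.50 to 16.8 CPM in the dosed mice, which did not pass (0.97 ± 0.33, adjusted p = 0.508). Decr1, the reductase for unsaturated fatty acids, had a log2 difference of 1.55 ± 0.38 (adjusted p = 0.159) and was the other gene of this list that DESeq2 called.

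The omega-oxidation and thioesterase list held the largest share of calls, 7 of 13 genes, with a median of 3.44. Thioesterases release free fatty acids from coenzyme A. Acot2, the mitochondrial form, measured 3.79, 2.78, 3.99, 2.05 and 2.67 CPM in control mice 1 to 5, and 31, 17.1, 36.3, 83.1 and 53.6 CPM in dosed mice 1 to 5. The lowest dosed mouse, replicate 2, was still above every control, and the log2 difference was 3.86 ± 0.42 (adjusted p = 0.000121). Acot3, the peroxisomal form, measured 3.68, 3.71, 10.1, 8.48 and 2.84 CPM in the controls and 77.6, 13.9, 147, 266 and 207 CPM in the dosed mice. Here replicate 2 came close to the highest control without reaching it, and the log2 difference was 4.61 ± 0.73 (adjusted p = 0.00773). Acot1, the cytosolic form, rose from 8.88 to 76.1 CPM in the controls to 97.2 to 1027 CPM (3.84 ± 0.69, adjusted p = 0.0192), a call lost without control replicate 2, 3 or 4 or without dosed replicate 4. The 3 Acot genes are close copies of each other, and so are the Cyp4a genes, so probe counts may be shared among them and single members are uncertain.

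Cyp4a enzymes hydroxylate fatty acids at their omega end, and Cyp4a14 is a classical marker of PPAR-alpha activity in mouse liver. Cyp4a14 stood at 44.5, 1.39, 10.3, 21.5 and 2.67 CPM in control mice 1 to 5 and at 297, 187, 209, 476 and 845 CPM in dosed mice 1 to 5. The controls spread over a wide range but did not overlap with the dosed mice, and the log2 difference was 4.66 ± 0.88 (adjusted p = 0.0303). That call was lost when control replicate 2, 3 or 4 or dosed replicate 4 or 5 was left out, with adjusted p up to 0.126. Cyp4a31 (3.44 ± 0.70, adjusted p = 0.0479) and Cyp4a32 (3.37 ± 0.68, adjusted p = 0.0473) also rose. Cyp4a10 had a difference of similar size, 4.33 ± 0.91, with 9.05 to 173 CPM in the controls and 580.1 to 2354 CPM in the dosed mice, and did not pass (adjusted p = 0.0605). Aldh3a2, the dehydrogenase that oxidises fatty aldehydes further, rose from 226 to 667 CPM in the controls to 1259.6 to 4438 CPM (2.72 ± 0.46, adjusted p = 0.0102, and 0.0589 without control replicate 2).

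Among genes of lipid uptake, droplets and secreted factors, 3 of 27 rose, and all 27 differences were positive, with a median of 1.32. Cd36, the fatty acid translocase of the plasma membrane, stood at 16.9, 5.16, 13.7, 12.3 and 32.3 CPM in control mice 1 to 5 and at 93.4, 121, 75.7, 103 and 237 CPM in dosed mice 1 to 5. Replicate 5 was well above the other dosed mice, replicate 2 was not low for this gene, and the groups did not overlap (2.97 ± 0.49, adjusted p = 0.01). Slc27a1, a fatty acid transporter that also acts as an acyl-CoA ligase, was at 5.22 to 9.77 CPM in the controls and at 18.1 to 153 CPM in the dosed mice (3.26 ± 0.54, adjusted p = 0.01, and 0.0539 without control replicate 2). Cidea, a droplet fusion protein best known from brown fat, was near its detection limit: the controls held 1 count in all and the dosed mice 164, a scaled ratio of 155 (95% interval 27.4 to 6141, for counting error only; adjusted p = 0.0178). That call was lost without control replicate 1, 2, 3 or 4, with adjusted p up to 0.0794. Its dosed mice 1 to 5 gave 4.80, 0.234, 1.33, 2.63 and 0.233 CPM, so replicates 2 and 5 were far below replicate 1. Pdk4, the kinase that shuts off pyruvate dehydrogenase, went from 0.0539 to 1.68 CPM in the controls to 2.09 to 20.9 CPM (3.51 ± 0.78, adjusted p = 0.093). Mogat1, an acyltransferase of triglyceride synthesis, likewise missed the threshold (5.06 ± 1.07, adjusted p = 0.0605). Fgf21, the fasting hormone that PPAR-alpha induces, showed 0 to 19.97 CPM in the controls and 1.09 to 42.8 CPM in the dosed mice, overlapping groups (1.32 ± 1.19, adjusted p = 0.999). Its highest value in each group came from the pair of libraries that stood apart.

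Ucp3, a mitochondrial carrier best known from muscle, was at or near 0 in the controls, with 2 counts in all against 203 in the dosed mice, a ratio of 95.6 (95% interval 26.1 to 795, for counting error only). Dosed mice 1 to 5 gave 1.74, 0.234, 1.23, 4.48 and 4.97 CPM, and the call (adjusted p = 0.0241) was lost in 7 of the 10 cases of leaving out 1 mouse. The promoters of Ucp3 and Cd36 are shown because, of the 20 called genes with a RefSeq promoter entry (GRCm38.p6), these were the ones holding the receptor's element (AGGTCA, 1 free base, AGGTCA, on either strand) with at most 2 mismatches. That is 10% of the 20 genes, beside 4.4% of all 27025 genes with an entry. The element with no mismatch was in 0 of the 20 genes, beside 0.0481% of all genes. A single AGGTCA, which also makes up each arm of the element, was in 5 of the 20 (25%), namely Acot3, Cd36, Fam131c, Pctp and Ucp3, beside 18.1% of all genes. The search window ran from 250 bases before to 50 after the start site, and the 250 bases before it are printed 5' to 3' on the gene's own strand, with capitals marking each match to the element or to a single AGGTCA. The Ucp3 stretch is chr7:100472741-100472990 on the plus strand, and the Cd36 stretch is chr5:17835897-17836146 on the minus strand.
Ucp3: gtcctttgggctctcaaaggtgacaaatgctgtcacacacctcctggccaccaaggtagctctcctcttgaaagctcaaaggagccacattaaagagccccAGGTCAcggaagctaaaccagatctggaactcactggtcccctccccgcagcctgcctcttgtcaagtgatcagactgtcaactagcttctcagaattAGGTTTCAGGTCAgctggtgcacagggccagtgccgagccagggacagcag
Cd36: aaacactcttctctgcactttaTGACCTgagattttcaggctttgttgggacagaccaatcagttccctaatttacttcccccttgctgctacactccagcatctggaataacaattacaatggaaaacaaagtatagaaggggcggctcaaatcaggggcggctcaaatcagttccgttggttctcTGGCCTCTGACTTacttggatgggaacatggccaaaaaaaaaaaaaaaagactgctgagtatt
The 13-base match begins 51 bases before the Ucp3 start on the gene's strand and 63 bases before the Cd36 start on the opposite strand. A match is a description of these letters, not a measured binding site.

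The other 14 called genes lie outside every list, and several handle other lipids or sugars. Sptlc3 encodes a subunit of serine palmitoyltransferase, which starts sphingolipid synthesis. It was nearly silent in the controls, with 0.115, 0, 0.0539, 0.0663 and 0.0569 CPM in mice 1 to 5, and stood at 17.7, 4.67, 13.8, 55.3 and 14.4 CPM in dosed mice 1 to 5. The controls held 4 counts in all against 1828, a ratio of 431 (95% interval 168 to 1582, for counting error only). Sptlc3 had the smallest adjusted p of all genes, 5.25e-05, and its log2 difference was 8.44 ± 0.83. Replicate 4 lay far above the other dosed mice, and the lowest dosed mouse, replicate 2, was far above every control.

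Pctp, the phosphatidylcholine transfer protein, stood at 1.61, 1.45, 3.88, 7.62 and 4.32 CPM in the controls and at 44.6, 24.5, 47.5, 55.4 and 61.9 CPM in the dosed mice. The groups were well apart, with a log2 difference of 3.62 ± 0.47 (adjusted p = 0.00138). Fbp2, the muscle form of fructose bisphosphatase, showed 0.115, 0, 0.108, 0 and 0.228 CPM in the controls and 5.09, 2.49, 5.41, 6.56 and 10.7 CPM in the dosed mice. With 7 control counts in all against 489, its ratio was 65.8 (95% interval 31.7 to 165, for counting error only; adjusted p = 0.00159). Ddhd2, a phospholipase and triglyceride lipase, was 3.48-fold higher (1.80 ± 0.33, adjusted p = 0.0192), a call lost in 5 of the 10 cases of leaving out 1 mouse. Serinc2, a membrane protein of the serine incorporator family, was 3.16-fold higher, with 23.5 to 50.2 CPM in the controls and 84.3 to 134 CPM in the dosed mice (1.66 ± 0.28, adjusted p = 0.01, and 0.0539 without control replicate 2).

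Signalling genes were also among the calls. Gnai1, an inhibitory G protein subunit, measured 3.33, 2.32, 1.56, 3.78 and 1.42 CPM in the controls and 16.9, 8.56, 16.4, 51.6 and 20.1 CPM in the dosed mice. Replicate 4 was the highest and replicate 2 the lowest, with no overlap (3.20 ± 0.48, adjusted p = 0.00381). Pde4d, a phosphodiesterase that breaks down cyclic AMP, was 2.75-fold higher, though replicate 2 at 27.4 CPM lay below the highest control at 33.5 CPM (1.46 ± 0.30, adjusted p = 0.0479). Gabrg1, a subunit of the GABA-A receptor, had 4 counts over the controls and 291 over the dosed mice, a ratio of 68.6 (95% interval 26.5 to 253, for counting error only; adjusted p = 0.0102, and up to 0.0539 without control replicate 2 or 3). Lgals4, a galectin best known from gut epithelium, rose by 1.83 ± 0.35 on the log2 scale (adjusted p = 0.033), from 2.69 to 3.94 CPM in the controls to 6.93 to 18.2 CPM. The remaining genes were Tmem98 (1.75 ± 0.35), Fam131c (1.89 ± 0.39) and Gm49366 (3.95 ± 0.79), with adjusted p between 0.0473 and 0.0479, and Fam43a, described last. Tmem98, Fam131c, Gm49366, Lgals4, Pde4d, Cyp4a31 and Cyp4a32 kept their call in at most 3 of the 10 cases of leaving out 1 mouse. Serinc2, Ddhd2, Lgals4, Tmem98, Cyp4a32, Pde4d, Cyp4a31 and Fam131c fall outside the rule for naming genes and were named after their values were seen.

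**Figure D2:**
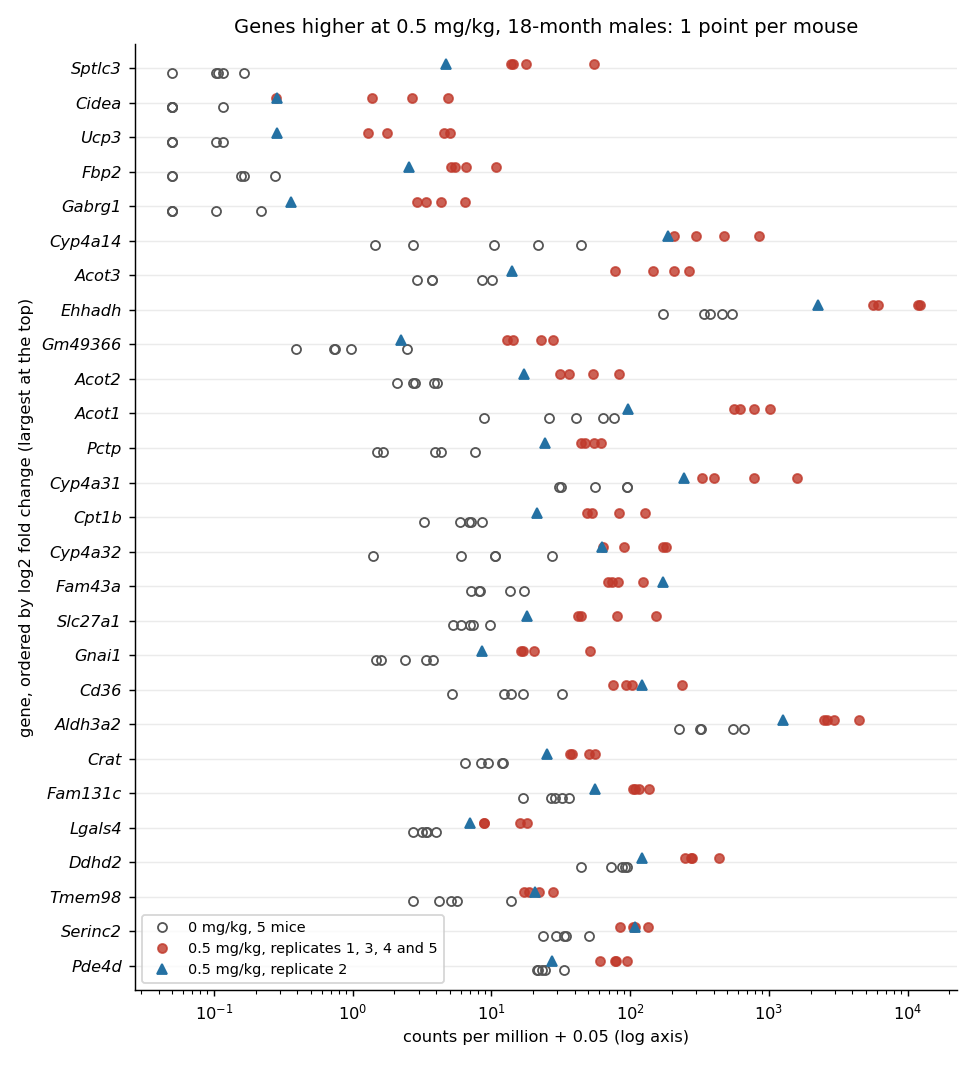
CPM plus 0.05, on a log axis, of the 27 called genes in each of the 10 mice, ordered by log2 fold change, with controls as open circles, dosed replicate 2 as blue triangles and the other dosed mice as red circles. The triangle is the lowest dosed mouse in 22 of the 27 genes, and the groups overlap in Gm49366 and Pde4d.

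The dosed mice differed from each other in a common order across these genes. Replicate 2 was the lowest dosed mouse in 22 of the 27 genes, and replicate 4 was the highest in 16 and replicate 5 in 8. The median log2 ratio to the control mean over the 27 genes was 2.57, 1.66, 2.56, 3.52 and 3.35 in dosed mice 1 to 5. Replicate 2 is also the dosed library of the pair that stood apart in Apoa4 and in the fetal and tumour markers, and whether these go together was not tested. For 11 of the called genes more than 1 probe was read: of their 28 probes 27 were tested, and all 27 differences were positive. Their sums were called in these same libraries, so the signs are a description. With probes unsummed, 25 of the 27 genes kept a call by edgeR's quasi-likelihood test. No probe of Cyp4a31 (adjusted p = 0.0558, 0.24 and 0.777) or Cyp4a32 (adjusted p = 0.0552) passed.

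Without the pair, control replicate 5 and dosed replicate 2, 36 genes rose and 7 fell, and 25 of the 27 were among them. This comparison was chosen after seeing the data, with dosed replicate 2 known to be the lowest dosed mouse in most of the 27 genes, and 18 of its calls were new. Lipid droplet genes were among the new ones: Cidec, a droplet fusion protein, gave 0 to 0.795 CPM in the 4 remaining controls and 5.12 to 8.46 CPM in the 4 remaining dosed mice (4.20 ± 0.72, adjusted p = 0.0114), against 6.66 CPM in control replicate 5. Plin2, the coat protein of droplets, rose by 1.51 ± 0.31 on the log2 scale (adjusted p = 0.0404), from 934 to 1496 CPM in the 4 remaining controls to 2121 to 3840 CPM in the 4 remaining dosed mice, and control replicate 5 stood at 3012 CPM. Dab1, an adaptor of the reelin receptors, changed most clearly (3.17 ± 0.38, adjusted p = 0.000783), with 116.5 CPM in control replicate 5 against 3.31 to 7.69 CPM in the other controls. In Cidec, Plin2 and Dab1 the omitted dosed replicate 2 was the highest dosed mouse, at 9.81, 5150 and 121.3 CPM. With the pair kept, edgeR's quasi-likelihood test called none of them (adjusted p = 0.628, 0.32 and 0.92), and the log2 differences were 2.10, 1.24 and 1.27. Sult1a1, a sulfotransferase of phenols and drugs, fell by 2.33 ± 0.33 on the log2 scale (adjusted p = 0.00196): it was at 1048 to 1209 CPM in all 5 controls, at 833 CPM in dosed replicate 2 and at 134 to 270.3 CPM in the other dosed mice. Acmsd also fell (-2.02 ± 0.39, adjusted p = 0.0311), as did Slc22a7, an organic anion transporter (-2.47 ± 0.51, adjusted p = 0.0441). These 6 genes were picked from the 18 after their values were seen.

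The other 29 lists, with 409 tested genes, held 0 genes called by edgeR, with 16 higher and 13 lower at an unadjusted p under 0.05. DESeq2 called 3 of them higher and 1 lower, among them Pltp, Krt23 and Gulo. Ppara itself had overlapping groups, at 116 to 206 CPM in the controls and 127 to 172 CPM in the dosed mice (0.07 ± 0.41). Targets of the drug-sensing receptors CAR and PXR had a median of -0.27, with Cyp3a11, the main drug-metabolising P450, at -0.92 ± 0.51 (adjusted p = 0.898) and Cyp2b10 at -0.30. Cyp1a2, a target of the dioxin receptor, was at -0.70 ± 0.76 (adjusted p = 0.999). Cholesterol genes sat at the level of all genes, with a median of 0.020, and fatty acid synthesis genes at 0.23. Pltp, the phospholipid transfer protein, went from 0.928 to 3.47 CPM in the controls to 6.11 to 13.2 CPM, a difference of 2.22 ± 0.52 that edgeR did not call (adjusted p = 0.128).

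Several lists of genes made for export or for amino acid and sugar metabolism had negative medians without a call. The 9 hepatocyte markers were all negative, with a median of -0.77, and so were the 26 acute-phase and complement genes, with a median of -0.50. Hpx, the haem-binding plasma protein, was at -1.31 ± 0.53 (adjusted p = 0.631). Male-biased genes were negative in 13 of 14 cases, with a median of -1.04, and Mup20, a urinary protein of males, was at -2.19 ± 1.06 (adjusted p = 0.81). Female-biased genes were mostly negative as well, in 15 of 17 cases, with a median of -0.32. Lymphocyte and plasma cell markers had a median of 1.89, with Cd79a of the B cell receptor at 244 CPM in dosed replicate 5 and at 0.934 to 8.59 CPM in the other 9 mice. Cell cycle genes had a median of 0.79, with Cdk1 at 1.23 ± 0.70 (adjusted p = 0.909). In RNA from whole sections, fewer cells of a type and less RNA per cell cannot be told apart.

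**Figure D3:**
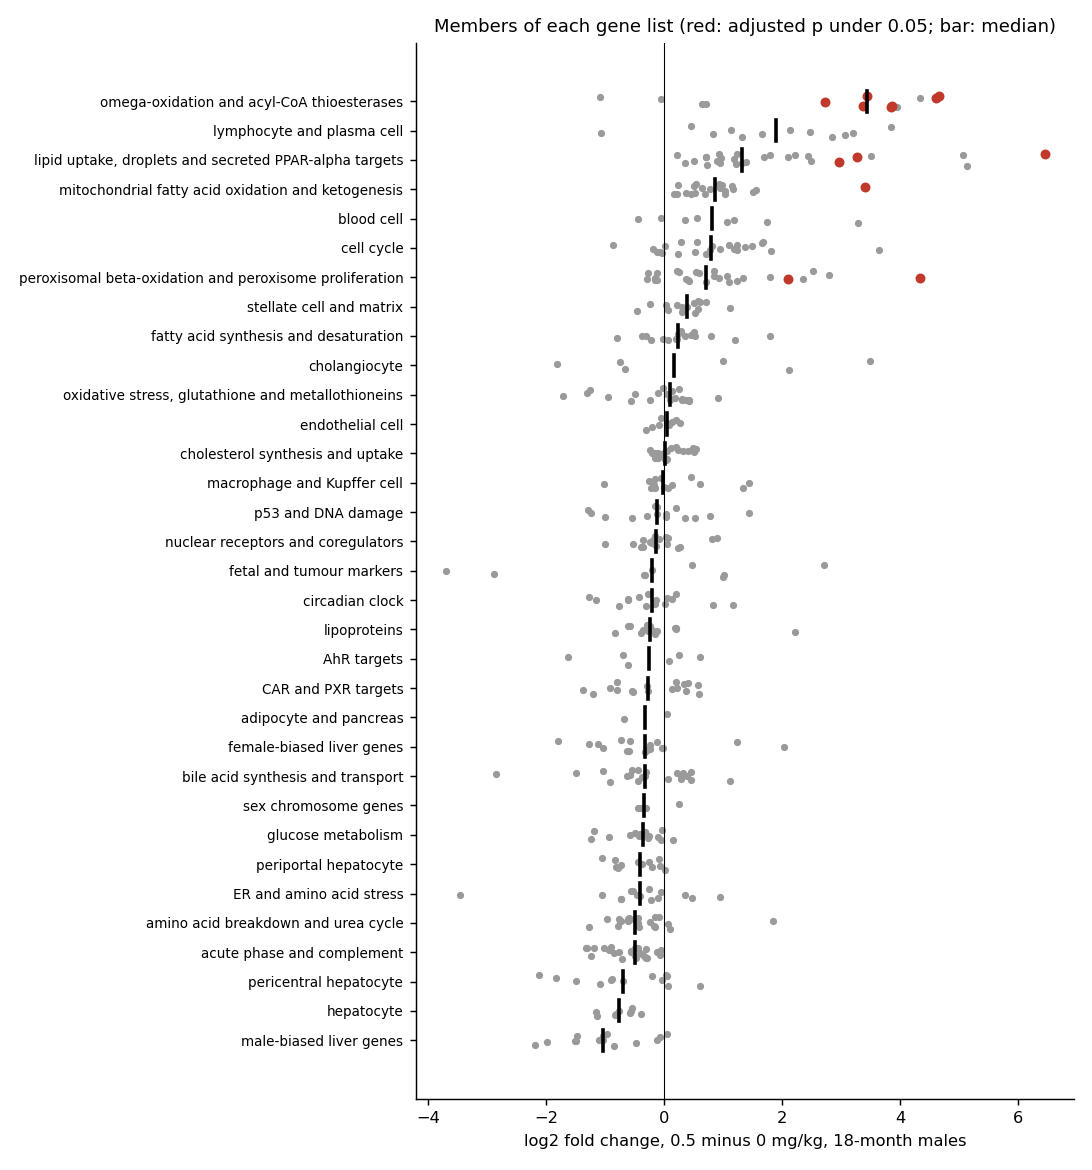
Log2 fold changes (0.5 minus 0 mg/kg, 18-month males) of the tested members of the 33 gene lists, 1 point per gene, red where the adjusted p was under 0.05, with a black bar at each list's median. Red points appear in 4 lists alone, those of omega-oxidation and thioesterases, lipid uptake and droplets, mitochondrial oxidation and peroxisomes.

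The 27 genes were then followed over the doses given to 18-month males. The comparison of 5 with 0 mg/kg and those of the lower doses share the 5 control mice with the one above, so their values are set side by side. At 5 mg/kg 203 genes rose (1.56%), the 27 among them, and 24 of the 27 had a larger log2 fold change than at 0.5 mg/kg, although 1 of them, Acot2, passed the direct test between these doses given below. The median log2 fold change of the 27 genes was 0.68 at 0.05 mg/kg and 0.72 at 0.1 mg/kg. edgeR called 0 genes higher at either lower dose (0%). At an unadjusted p under 0.05, 812 genes were higher and 312 lower at 0.05 mg/kg, and 118 higher and 279 lower at 0.1 mg/kg. Of the 27, 6 were higher on that measure at 0.05 mg/kg (Acot3, Cyp4a14, Ddhd2, Fam43a, Fbp2 and Pctp) and 5 at 0.1 mg/kg (Aldh3a2, Cyp4a14, Ehhadh, Fam43a and Pctp).

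Ehhadh stood at 129.97, 1072, 744 and 771 CPM in the mice at 0.05 mg/kg, at 1103, 1199 and 986 CPM at 0.1 mg/kg and at 25613, 9823 and 16498 CPM at 5 mg/kg. All 3 mice at 0.1 mg/kg were above all controls, and 1 mouse at 5 mg/kg fell within the range at 0.5 mg/kg. Cpt1b gave 2.18 to 6.57 CPM at 0.05 mg/kg, 5.18 to 6.23 CPM at 0.1 mg/kg and 82.9 to 348 CPM at 5 mg/kg, so the lower doses overlapped with the controls. Cd36 was at 6.58 to 29.3 CPM, 10.5 to 35.8 CPM and 293 to 321 CPM at these doses, and the mice at 5 mg/kg were all above those at 0.5 mg/kg. Pctp was at 58.5, 17.2 and 40.03 CPM at 5 mg/kg, values that overlap with those at 0.5 mg/kg. Such overlap was not particular to Pctp or Ehhadh. In Cpt1b, Acot1, Cyp4a14 and Sptlc3, too, at least 1 mouse at 5 mg/kg lay below the highest mouse at 0.5 mg/kg.

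**Figure D4:**
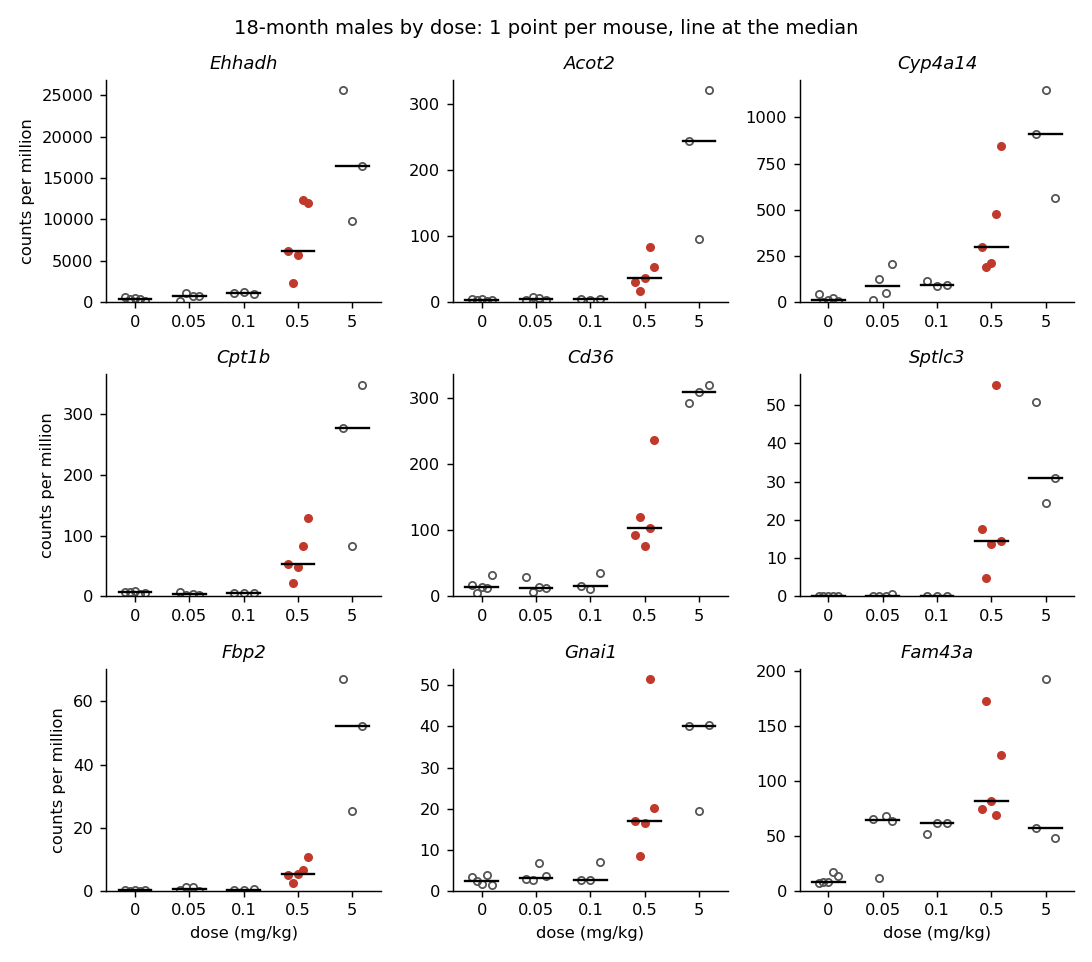
CPM of 9 called genes in each 18-month male by dose (mg/kg), 1 point per mouse, with lines at the medians and the mice at 0.5 mg/kg in red. Fam43a is low in the controls and in 1 mouse at 0.05 mg/kg, and in Ehhadh, Acot2, Cpt1b, Cd36, Sptlc3 and Fbp2 no mouse at 0, 0.05 or 0.1 mg/kg reaches the lowest mouse at 0.5 mg/kg.

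Set directly against 0.5 mg/kg, 5 mg/kg gave 9 higher genes (0.0692%) and 1 lower (0.00769%), all with an adjusted p of 0.0433 by edgeR's quasi-likelihood test. Acot2 was the 1 gene of the 27 among them: its mice at 5 mg/kg gave 244, 95.9 and 321 CPM, all above those at 0.5 mg/kg, a further log2 difference of 2.32 ± 0.41. The other genes were not among the 27. Mt2, a metallothionein, was at 43.3, 4812 and 354 CPM at 5 mg/kg and at 11.9 to 39.2 CPM at 0.5 mg/kg (6.43 ± 1.12). Rab30, a small GTPase of the Golgi, Mmp7, a matrix protease, and Lbp, the lipopolysaccharide-binding protein, were higher by 3.74 ± 0.69, 3.37 ± 0.62 and 2.75 ± 0.49. Mt2, Rab30, Mmp7 and Lbp were each highest in replicate 2 at 5 mg/kg, and without that mouse 2 genes were called, Rab30 stood at 0.79 (adjusted p = 1), Lbp at 1.299 (adjusted p = 0.393), Mmp7 at 2.81 (adjusted p = 0.185) and Mt2 at 3.30 (adjusted p = 0.309). Cryl1, a crystallin-like dehydrogenase, was the lower gene (-2.70 ± 0.50). The count depended on single mice in most cases, falling to 0 without dosed replicate 1, 2, 3 or 5, to 3 without dosed replicate 4, and rising to 46 without replicate 1 at 5 mg/kg.

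The 27 genes were then read in mice that share no library with the comparison above, with values from a fit of all 92 libraries. In males after 9 months all 27 differences between 0.5 and 0 mg/kg were positive, beside 52.8% of all genes. Their median was 2.44, beside 0.03 over all genes. Of the 27, 11 rose there, in a comparison with 27 calls among 13681 genes (0.197%): Acot2, Aldh3a2, Cd36, Crat, Cyp4a14, Cyp4a31, Ddhd2, Ehhadh, Pde4d, Slc27a1 and Sptlc3. Ehhadh at 9 months was at 319 to 567 CPM in the controls and at 2403 to 5767 CPM in the dosed mice, with no overlap (3.23 ± 0.45, adjusted p = 1.67e-06). Cd36 went from 4.29 to 9.10 CPM to 55.5 to 122 CPM (3.61 ± 0.50, adjusted p = 2.01e-06). Sptlc3 went from 0 to 0.171 CPM to 1.19 to 13.7 CPM (adjusted p = 0.0198).

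In females after 18 months 21 of the 27 differences were positive, beside 49% of all genes. Their median was 0.83, beside -0.0068 over all genes. Of the 27, 5 rose there, in a comparison with 14 calls among 13681 genes (0.102%): Acot1, Cyp4a14, Cyp4a31, Ehhadh and Sptlc3. These values include female control replicate 3, a library of 403108 counts, against 11083295 to 17245725 in the other 9 female libraries. Without it, a comparison chosen after seeing the data, edgeR called 3 genes higher and 0 of the 27, of which 11 were higher at an unadjusted p under 0.05, and 21 differences were again positive, with a median of 0.80. Ehhadh was at 368 to 1009.8 CPM in the female controls and at 663 to 2969 CPM in the dosed females, which overlap (1.34 ± 0.38, adjusted p = 0.0302). Its highest control was that shallow library, and without it the difference was 1.51 ± 0.41 (adjusted p = 0.654). Cd36 was already at 47.3 to 111 CPM in the female controls and was at 105 to 223 CPM in the dosed females (0.89 ± 0.41, adjusted p = 0.38). Acot3, Cidea, Gm49366, Gnai1, Pctp and Ucp3 had no positive difference in females, and Pctp, for one, was at -0.25 ± 0.64.

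Whether the response itself differed was tested as the difference between the log2 fold changes. Between 18 and 9 months in males, 2 of 13681 genes had a higher log2 fold change at 18 months (0.0146%) and 1 a lower one (0.00731%). Of the 27, 23 differences were positive and 5 had a 95% interval above 0, beside 46.1% and 1.41% of all genes. Of the 27, 1 was called, Fam43a. For Ehhadh the difference was 1.11 (95% interval 0.04 to 2.18) and for Cd36 -0.64 (-1.84 to 0.55), neither of them called. Because the 27 were called in the 18-month males, whose libraries also enter these differences, their signs are a description. The 9-month male libraries were shallower, with 4607861 to 6319488 counts, and the part of depth was not tested.

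Between males and females at 18 months, 50 genes had a higher log2 fold change in males (0.365%) and 2 a lower one (0.0146%). All 27 genes had a positive difference, with a median of 2.23, and 21 had a 95% interval above 0, beside 52.2% and 7.52% of all genes. Since the 27 were called in the same male libraries, these signs and intervals are a description and no support. Called were 5 of them: Ehhadh (3.00 ± 0.54, adjusted p = 0.00251), Acot2 (2.80 ± 0.66, adjusted p = 0.0387), Acot3 (4.73 ± 1.01, adjusted p = 0.0239), Pctp (3.88 ± 0.92, adjusted p = 0.0387) and Fam43a (3.12 ± 0.45, adjusted p = 1.13e-05). Ehhadh and Fam43a were called whichever of the 20 libraries was left out. Without the shallow female control replicate 3, Ehhadh and Fam43a were the 2 genes called.

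Fam43a, a gene of little-known function, had a pattern of its own. In control mice 1 to 5 it stood at 7.13, 8.18, 8.13, 17.2 and 13.7 CPM, and in dosed mice 1 to 5 at 74.2, 173, 81.7, 68.8 and 124 CPM. The groups did not overlap, replicate 2 was here the highest dosed mouse, and the log2 difference was 3.26 ± 0.48 (adjusted p = 0.00331). Over the whole series the 18-month male controls were the low group: in the fit of all libraries they ran from 7.57 to 18.2 CPM, and 86 of the other 87 libraries lay above them, at 51.6 to 247 CPM. The exception was 1 mouse at 0.05 mg/kg among the 18-month males, at 12.4 CPM. The 4 control males at 9 months were at 68.3 to 104 CPM and the 5 control females at 18 months at 107 to 204 CPM, and their differences from the dosed groups did not pass the test (0.08 ± 0.33 and 0.14 ± 0.31). The larger response of 18-month males, by 3.18 ± 0.45 against 9 months (adjusted p = 5.71e-06), goes with low controls, since the dosed mice lie within the range of the other groups. Between 5 and 0.5 mg/kg its log2 difference was -0.07 ± 0.50. What sets its level in the 18-month male controls was not tested.

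**Figure D5:**
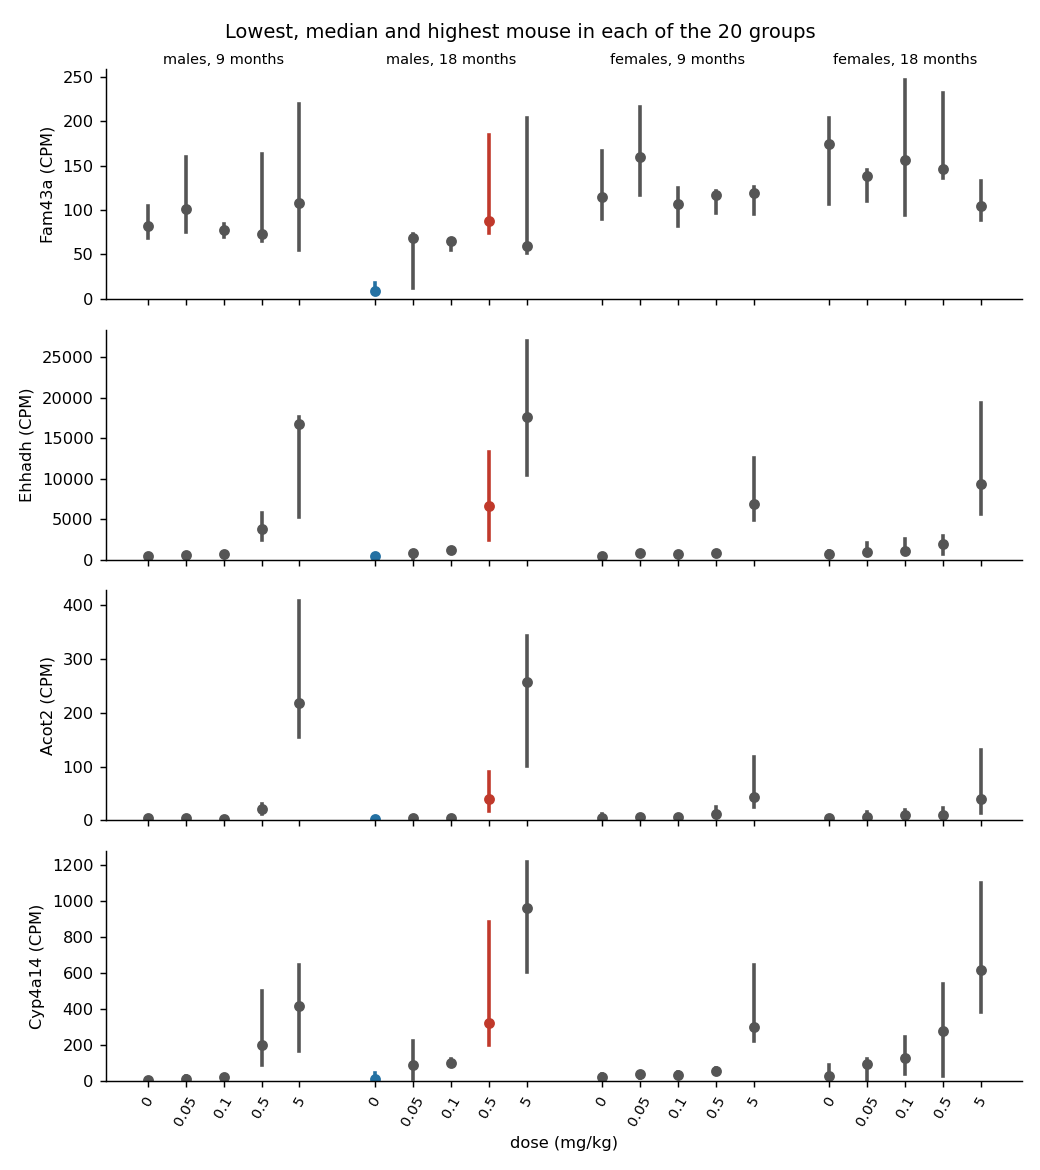
Lowest, median (point) and highest CPM of Fam43a, Ehhadh, Acot2 and Cyp4a14 in each of the 20 groups by sex, duration and dose (mg/kg), with the 18-month male controls in blue and the 18-month males at 0.5 mg/kg in red. Fam43a is low in the blue group at 7.57 to 18.2 CPM, and Ehhadh in the same mice is at 185 to 578 CPM, against 2422 to 13224 CPM in the red group.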

How the data were processed

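Per the labels' protocols, sections of fixed liver were scraped from slides and processed with TempO-Seq. The authors deposited raw counts for 30146 probes in 92 samples, and bcl2fastq (2.17.1.14) and Bowtie are named in the submitters' processing notes. The Bowtie version, genome build and probe list were not given in the sources used here. Deposited counts of probes for the same gene were summed to 21400 symbols, 6309 of which had more than 1 probe.

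Samples were grouped by the sex, duration and dose in their labels. Genes were tested with edgeR 4.0.16 in R 4.3.3 (limma 3.58.1): filterByExpr, TMM scaling, robust quasi-likelihood fit and Benjamini-Hochberg adjustment over all genes tested. A gene was called at an adjusted p under 0.05. The comparisons within 18-month males used all 20 of these libraries, which left 13002 genes, and the differences between durations and sexes used all 92, which left 13681 genes. CPM values of the other groups come from the latter fit and differ slightly in scaling. The fits were tested on simulated data. DESeq2 1.42.0, other scaling, other filters, unsummed probes, other thresholds and leaving out mice were alternatives. Exact 95% intervals were used for ratios of counts. They pool the counts of all mice of a group, so they cover counting error only and leave out the spread between mice. The labels mention no molecular identifiers, so the counting error of low counts may be larger than these intervals state.

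Members and gene lists (33 lists, 520 genes, 4 of them without a probe) were chosen with earlier results of these data known. Named genes were, among calls with a mean raw count of at least 10, the 12 largest rises, the 12 largest falls and the 10 smallest adjusted p, up to 4 genes per list by adjusted p, the largest 4 differences in each direction of the other comparisons, and a fixed set of receptor targets (Ppara, Ehhadh, Fgf21, Cyp4a14, Cyp4a10, Pex11a, Pdk4 and Acot1 for PPAR-alpha; Cyp3a11, Cyp2b10 and Cyp1a2 for other receptors). Promoters were searched in the RefSeq table, which held 20 of the 27 called genes. Some genes are not reported here.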

Additional observations from a re-analysis of the deposited data

Results flagged for a closer look

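In groups of 5 mice, a single value lay far from the others, by Dixon's criterion, in 11 of 70 groups examined (35 genes in each of the 2 groups), that is 15.7%. The criterion's rate of about 1 in 20 is for normally distributed, independent values. These were unlogged CPM, mostly of called genes, so the share is a description and cannot be set against that rate. Dosed replicate 4 was far above the other dosed mice in Sptlc3 (55.3 CPM, next 17.7), Gnai1 (51.6 CPM, next 20.1) and Pdk4 (20.9 CPM, next 6.76). Dosed replicate 5 was far above the others in Cd36 (237 CPM, next 121). Dosed replicate 2 had the high Fgf21 value of 42.8 CPM, and control replicate 5 had 19.97 CPM of Fgf21 and 13.9 CPM of Tmem98. Control replicate 4 was high in Ppara (206 CPM), Pde4d (33.5 CPM) and Cidea (0.0663 CPM, a single count, with 0 in the other controls). Control replicate 3 was high in Gm49366 (2.42 CPM, next 0.928).

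A difference between the responses of groups was found in 3 genes for duration and in others for sex. For duration, Fam43a (3.18) and Gabpb2 (2.24 ± 0.32, adjusted p = 5.71e-06), a subunit of a GA-binding transcription factor, had a higher log2 fold change at 18 than at 9 months. Gabpb2 differed mostly through a fall in the 9-month males, where controls were at 65.6 to 90.4 CPM and dosed mice at 16.6 to 31.02 CPM. At 18 months the male controls were at 20.1 to 25.4 CPM and the dosed males at 22.8 to 37.3 CPM. After 9 months at 0.1 mg/kg it was also low, at 21.8 to 34.4 CPM in males and 21.4 to 43.1 CPM in females. The 9-month female controls were at 57.5 to 84.8 CPM. In 18-month females it was at 22.6 to 31.4 CPM in controls and 21.7 to 76.1 CPM at 0.5 mg/kg. What sets these levels was not tested. Gm4788 had a fitted difference of -16.48 that rests on zeros and on control replicate 4 at 218 CPM and a 9-month dosed mouse at 38.8 CPM, and it was called in 13 of 19 cases of leaving out 1 library.

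Between males and females, the genes named for the size of their called differences include Ighv1-7 (12.67), Ighg3 (10.65), Cox6b2 (7.03), H1f3 (6.15) and Ly6k (-9.88). In female control replicate 3, the library of 403108 counts, Ighv1-7 was at 575 CPM, H1f3 at 711 CPM and Cox6b2 at 119 CPM, far above the other female controls. Ly6k was at 303 CPM in male control replicate 5 and at 0.772 to 1.83 CPM in the other male controls. Ighg3, an immunoglobulin chain, was at 111 CPM in dosed male replicate 5.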

How the results depend on the processing

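Under the alternatives run for the main comparison none of the 27 genes changed sign where tested. Over all of these, they kept their call in 390 cases and lost it in 120, of which 18 came from the threshold of 0.01. Genes that an alternative did not test are not in the 120: the fit of the 2 groups alone tested 24 of the 27 and called 20. Among the 152 named genes, 10 changed sign under at least 1 alternative, all of them uncalled, among them Afp, Cela1, Cyp2a4, Cyp2b10 (-0.62 to 0.33 on leaving out a mouse), Eng, Phlda3, Ppara, Spink1 and Spp1. Beside 27 calls, the fit of the 2 groups alone gave 44 (39 higher, 5 lower), DESeq2 108 (84 higher, 24 lower), an adjusted p under 0.01 gave 9, the fit of all 92 samples 82 (69 higher, 13 lower) and the fit without control replicate 5 and dosed replicate 2, chosen after seeing the data, 43. Leaving out each mouse in turn gave 10 to 39 calls. Between 5 and 0.5 mg/kg, 10 genes were called, 0 without the low-count filter, where their adjusted p was 0.0607 to 0.0634, and 0 to 46 on leaving out a mouse. For the difference between sexes, 52 genes became 96 with RLE scaling, 15 without the filter and 2 to 206 on leaving out a library. Of the 27 genes, 5 were higher in 18-month females and 0 without female control replicate 3, an omission chosen after seeing the data. For the difference between durations, 3 genes stayed 3 under both, and leaving out a library gave 2 to 3. For these shifts the cause was not tested. Depth limits the 5 called genes with at most 7 control counts. No paired analysis was possible because the labels give no replicate numbers that tie mice of different groups together.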

Other observations

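Control replicate 5 and dosed replicate 2, which come from different dose groups, resembled each other in several genes that were not called. Akr1c18, a steroid reductase, was at 535 and 426 CPM in this pair and at 0.336 to 2.87 CPM in the other 8 mice. Cela1, a pancreatic elastase, was at 59.6 and 56.99 CPM and at 0.265 to 4.34 CPM elsewhere. Prom1, a surface protein of bile duct and progenitor cells, was at 68.5 and 41.1 CPM and at 0.504 to 2.69 CPM elsewhere. Afp, the fetal albumin, was highest in control replicate 5, at 319 CPM (5612 counts). It had 418 counts in dosed replicate 2 and 23 to 154 counts in the other 8 mice. Control replicate 5 alone was low in pericentral hepatocyte genes, which summed to 719 CPM against 4944 to 14545 CPM in the other 9 mice.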
